A study of Mus musculus with 11 samples.

Results

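Tripartite motif (TRIM) genes were followed in cultured mouse microglia. Members were taken by symbol, as every gene whose symbol is Trim followed by a number and at most 1 letter, which gave 67 of the 34745 genes in the deposited table. Of these, 34 reached 1 FPKM (fragments per kilobase, scaled to the size of the library) in at least 2 of the 11 libraries and were tested among 10938 genes that did so, and 33 did not. The cells were microglia, the resident macrophages of the brain, taken from C57BL/6 cerebrum at 6 to 8 weeks of age. They were cultured for 10 to 14 days with 5 ng/ml TGF-β1 and 10 ng/ml M-CSF, which all groups received. Pam3CSK4 libraries (n = 2) came from cells given 100 ng/ml of this synthetic lipopeptide, a TLR2 agonist, over 24 h. IFN-γ libraries (n = 3) came from cells given 20 ng/ml of the cytokine over 24 h. Pam3CSK4+IFN-γ libraries (n = 3) came from cells given Pam3CSK4 first and then IFN-γ, at those doses and times. Control libraries (n = 3) came from cells given neither. The labels do not say whether Pam3CSK4 was washed out, when the Control cells were harvested, or whether replicates came from separate animals or cultures, so p-values measure only the spread between these libraries.

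Most TRIM proteins carry a RING finger, which passes ubiquitin from a conjugating enzyme to a substrate, then B-box and coiled-coil regions, and a variable C-terminal part that binds the target. In many members that part is a PRY/SPRY domain, which in primate TRIM5 recognises retroviral capsids and in TRIM21 binds the constant region of antibodies. Members are best known in macrophages for acting on incoming viruses and on the nucleic-acid sensors, adaptors and kinases that lead to interferon and NF-κB, and many are themselves induced by interferons. IFN-γ acts on genes through the GAS element, type I interferon through the ISRE, and TLR2 through MyD88 to NF-κB.

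Depth was 15033702 to 20321017 counts per library. The microglia markers Cx3cr1, Csf1r, Aif1, Itgam, Tmem119, P2ry12, Ptprc, Spi1 and Trem2 were each at 1 FPKM or more in every library. Some libraries also held transcripts of vessel wall cells and fibroblasts. The summed level of 10 such markers was 121 FPKM in IFN-γ replicate 1, 55.6 FPKM in Pam3CSK4+IFN-γ replicate 3 and 2213 FPKM in Control replicate 3, and 1.15 to 3.81 FPKM in the other 8 libraries. Of those 10 markers, 7, 5 and 7 were at 1 FPKM or more in these libraries in that order, and Rgs5 was under 0.1 FPKM in all 11. Calls of TRIM genes that were gained or lost without all 3 of these libraries, or without Control replicate 3, are given below. In bulk RNA, fewer cells of a type and less RNA per cell cannot be told apart.

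The family took a small part of each transcriptome. TRIM genes together held 0.148% and 0.150% of counts in the Pam3CSK4 libraries, 0.139% to 0.155% in the IFN-γ libraries and 0.158% to 0.175% in the Pam3CSK4+IFN-γ libraries, against 0.127% to 0.137% in the Control libraries. The ranges of the treated groups lay above that of Control. These sums lean on Trim30a, which held 4416 of 27442 TRIM counts in Pam3CSK4 replicate 1 and 4219 of 24747 in IFN-γ replicate 1. It held 1217 of 24496 in Control replicate 3, so the sums do not describe a typical member. Of the 34 tested members, 26 were at 1 FPKM or more in all 11 libraries, 7 averaged over 10 FPKM and 10 averaged under 2 FPKM. The median of their means was 4.01 FPKM. By the mean FPKM over all 11 libraries, the most abundant per length was Trim30a, followed by Trim8, Trim35, Trim28, Trim44, Trim21 and Trim41. In Control alone the order of mean FPKM was Trim8 (33.7), Trim35 (23.4), Trim28 (21.3), Trim44 (20.2) and Trim30a (19.6), with Trim41 at 12.0 and Trim21 at 5.62.

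**Figure D1:**
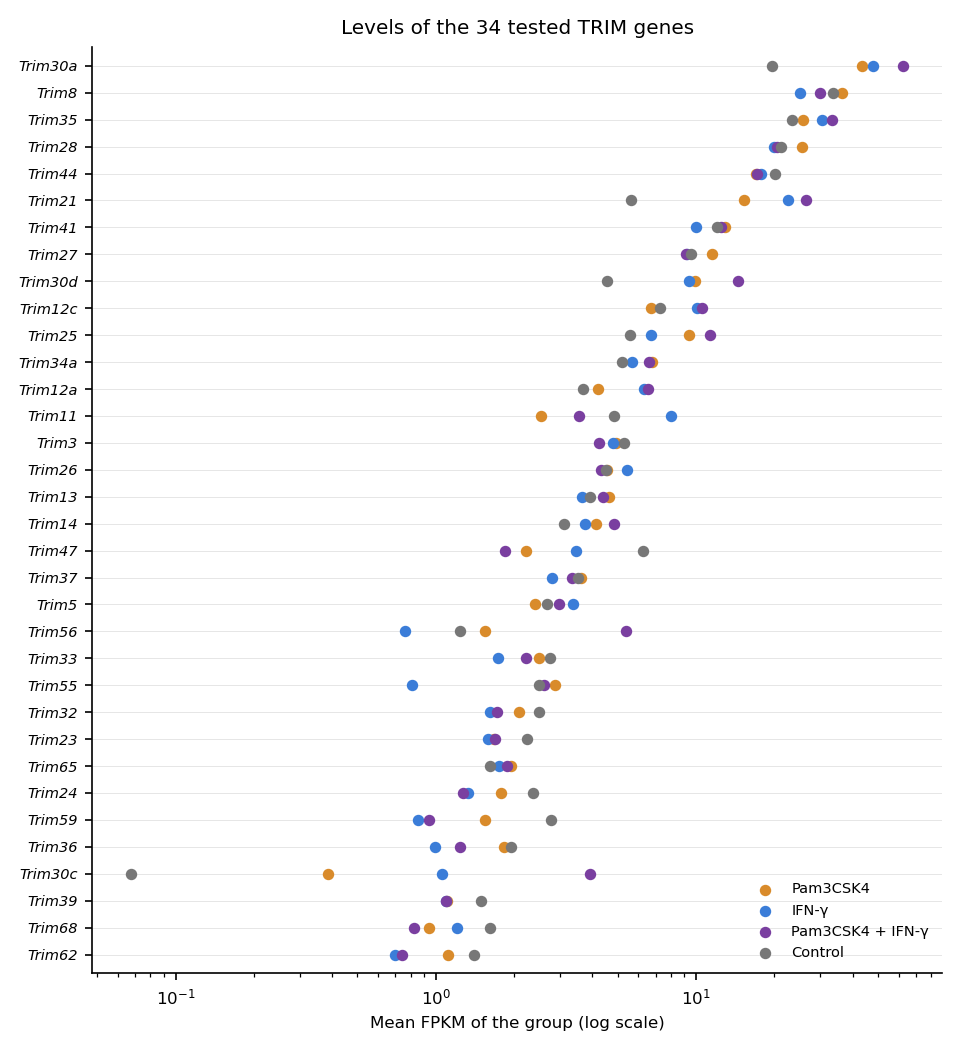
Mean FPKM of each tested TRIM gene (rows, ordered by the mean over all libraries) in the Pam3CSK4 (n = 2), IFN-γ (n = 3), Pam3CSK4+IFN-γ (n = 3) and Control (n = 3) groups, on a log axis. Most rows are tight, while Trim30c runs over the widest range, with 3.90 FPKM in Pam3CSK4+IFN-γ cells and 0.0674 FPKM in Control cells.

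Changes in the family went in both directions. Calls rest on edgeR's quasi-likelihood test with Benjamini-Hochberg adjustment over all 10938 tested genes, at an adjusted p under 0.05. With Pam3CSK4, 5 of 34 members (14.7%) were higher than in Control and 4 (11.8%) were lower, against 20.0% and 21.4% of all tested genes. With IFN-γ, 9 members (26.5%) were higher than in Control and 10 (29.4%) were lower, against 20.0% and 21.6% of all tested genes. With both, 9 members (26.5%) were higher than in Control and 7 (20.6%) were lower, against 23.4% and 24.2%. The median log2 change over the 34 members was 0.06, -0.01 and 0.04 in these comparisons, against -0.04, -0.07 and -0.04 over all tested genes. The treated groups share the Control libraries, so these comparisons are not independent. Trim30c reached 1 FPKM only in groups given IFN-γ, and Trim62 only in groups without it. Trim55 reached it in no IFN-γ library, and Trim68 only in Control and IFN-γ libraries. Calls of these members, kept in the family counts here and in the next paragraph, are therefore tied to the level filter. Under scaling by total counts, in which the median of all genes shifts by -0.11 in the IFN-γ comparison, IFN-γ gave 7 members higher and 12 lower. Of all 10938 tested genes, 1777 were higher and 3107 lower under that scaling, against 2189 and 2361 in the fit used above.

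Adding Pam3CSK4 before IFN-γ moved fewer members. Between Pam3CSK4+IFN-γ and IFN-γ cells, 5 members (14.7%) were higher and 2 (5.88%) were lower, against 17.0% and 17.2% of all tested genes. Between Pam3CSK4+IFN-γ and Pam3CSK4 cells, 4 members (11.8%) were higher and 0 were lower, against 6.06% and 3.04%, while 10 members had an unadjusted p under 0.05 by edgeR and DESeq2 called 6 higher and 0 lower. Without the 3 libraries that held vessel wall and fibroblast transcripts, 9 members were higher in that comparison. Without Control replicate 3 alone 8 were, although no Control library enters the contrast itself. Higher calls over all 10938 tested genes rose as well, from 663 to 1200 and 1185 in these settings, and numbered 936 by DESeq2. The interaction, which is the effect of Pam3CSK4 in IFN-γ-treated cells minus its effect in cells without IFN-γ, was called for Trim21 alone, lower (2.94% of members, against 8.01% of all tested genes lower and 8.01% higher). In the interaction 4 members had an unadjusted p under 0.05, and DESeq2 called 2 higher and 1 lower. Of all 10938 tested genes DESeq2 called 1188 higher and 1278 lower there. Cells given both agents received Pam3CSK4 before IFN-γ, so time since Pam3CSK4 may also differ from that in the Pam3CSK4 group. The interaction cannot tell this apart from the presence of IFN-γ. Over the 6 comparisons 23 members were called at least once.

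**Figure D2:**
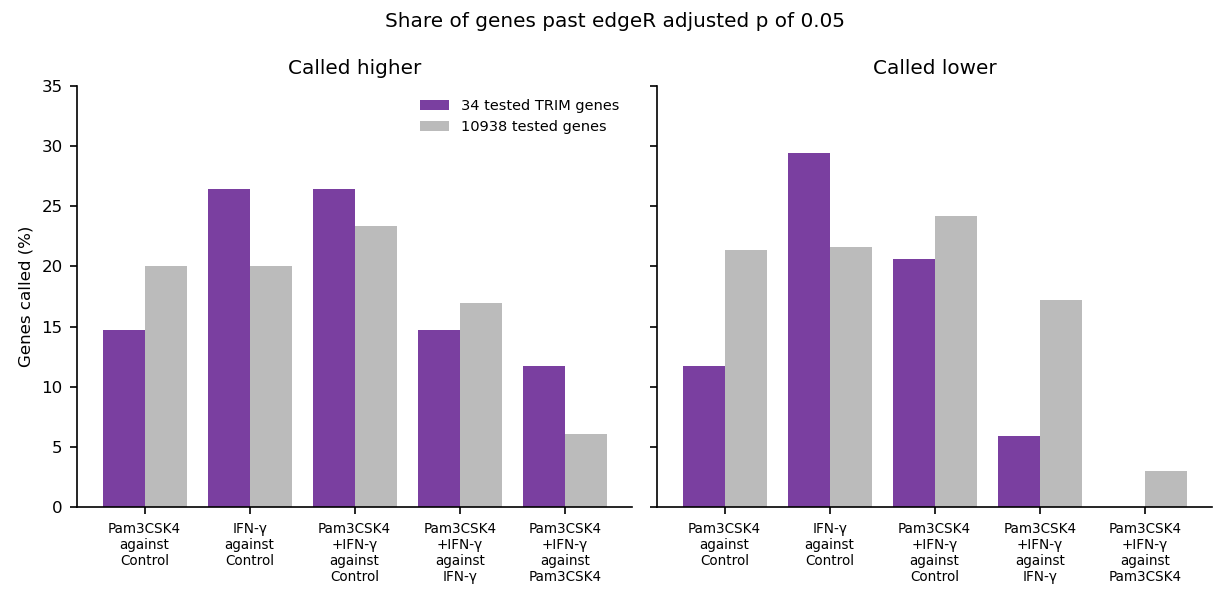
Percent of the 34 tested TRIM genes and of all 10938 tested genes past an edgeR adjusted p of 0.05, called higher (left) and lower (right) in each pairwise comparison. The TRIM bars stand above the grey bars for IFN-γ against Control in both directions (26.5% and 29.4%, against 20.0% and 21.6%). They stand below them for Pam3CSK4 against Control (14.7% and 11.8%, against 20.0% and 21.4%). Trim30c, Trim55, Trim62 and Trim68, counted in the TRIM bars, passed the level filter only through some of the groups.

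In a cluster of TRIM genes on chromosome 7, Trim30a, Trim30c and Trim30d were higher than in Control in every treated group, and Trim12a and Trim12c were higher in the groups given IFN-γ. The cluster spans 289 kb (mm10 chr7:104218793-104507849) and holds 10 members, the mouse relatives of TRIM5, TRIM6, TRIM30 and TRIM34, of which 7 were tested. Trim30c passed the level filter only through the groups given IFN-γ, so it is left out of the counts here. Of the other 6 tested, 2 were higher than in Control with Pam3CSK4, 4 with IFN-γ and 4 with both, and 0 were lower in any of the 3. Of all tested genes 20.0%, 20.0% and 23.4% were called higher and 21.4%, 21.6% and 24.2% lower, in that order. Trim5 and Trim34a were called in no comparison, and with both against IFN-γ the changes of Trim12a and Trim12c were 0.05 each (adjusted p = 0.876 and 0.808).

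Trim30a (ENSMUSG00000030921, chr7:104409025-104465193, minus strand) encodes a mouse protein known to dampen Toll-like receptor signalling by degrading the TAB2 and TAB3 adaptors. It had 46.2 and 40.3 FPKM in the Pam3CSK4 libraries, 48.6, 53.4 and 42.1 FPKM in the IFN-γ libraries and 63.2, 59.8 and 65.0 FPKM in the Pam3CSK4+IFN-γ libraries, against 21.3, 24.5 and 13.0 FPKM in the Control libraries. Every treated library lay above every Control library, and the Pam3CSK4+IFN-γ libraries lay above the rest. The log2 change against Control was 1.10 ± 0.25 (SE, adjusted p = 0.00727) with Pam3CSK4, 1.37 ± 0.24 (adjusted p = 0.00153) with IFN-γ and 1.74 ± 0.24 (adjusted p = 0.000269) with both. The steps from IFN-γ to both (0.38 on the log2 scale, adjusted p = 0.244) and from Pam3CSK4 to both (0.64, adjusted p = 0.188) did not pass, although without Control replicate 3 they did (adjusted p = 0.0108 and 0.00346). The interaction was -0.73 (adjusted p = 0.181), or -0.47 (adjusted p = 0.0446) without that library. Without all 3 libraries with vessel wall and fibroblast transcripts the step from Pam3CSK4 passed (0.62, adjusted p = 0.0105), while the step from IFN-γ (0.35, adjusted p = 0.0559) and the interaction (-0.50, adjusted p = 0.0691) did not.

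Trim30d (ENSMUSG00000057596, chr7:104470014-104507849, minus strand), the neighbour of Trim30a and a close relative, had 10.0 and 9.79 FPKM with Pam3CSK4, 9.38, 10.8 and 7.90 FPKM with IFN-γ and 15.4, 12.9 and 15.1 FPKM with both, against 4.61, 5.29 and 3.75 FPKM in Control. The groups treated with a single agent overlapped each other and neither overlapped Control. Its log2 change against Control was 1.09 ± 0.18 (adjusted p = 0.00132) with Pam3CSK4, 1.13 ± 0.17 (adjusted p = 0.000718) with IFN-γ and 1.75 ± 0.17 (adjusted p = 3.37e-05) with both. It was also 0.62 ± 0.17 higher on the log2 scale with both than with IFN-γ (adjusted p = 0.0182). That call was lost without IFN-γ replicate 1 (adjusted p = 0.0520), IFN-γ replicate 3 (0.0618) or Pam3CSK4+IFN-γ replicate 1 (0.0614). With both against Pam3CSK4 it was 0.65 ± 0.19 (adjusted p = 0.0645), and past the threshold without Control replicate 2 (0.0423) or 3 (0.00647).

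Trim30c (ENSMUSG00000078616, chr7:104382065-104390586, minus strand) had the largest change and the lowest Control level of the tested members. It had 0.354 and 0.417 FPKM with Pam3CSK4, 1.02, 1.11 and 1.03 FPKM with IFN-γ and 3.82, 4.12 and 3.75 FPKM with both, against 0.0431, 0.123 and 0.0362 FPKM in Control. In counts these were 10 and 10 with Pam3CSK4, 26, 32 and 24 with IFN-γ and 119, 129 and 113 with both, against 1, 3 and 1 in Control. The 4 groups did not overlap and stood in the order Control, Pam3CSK4, IFN-γ, both. It reached 1 FPKM only in cells that received IFN-γ, so it could pass the level filter only by differing between groups.

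Per library total, pooled counts of Trim30c were 58.6-fold those of Control with both agents (exact 95% counting interval 24.9 to 182). They were 15.9-fold with IFN-γ (6.53 to 50.2) and 5.76-fold with Pam3CSK4 (2.1 to 19.7). The intervals cover counting error only. The fitted log2 change was 5.85 ± 0.39 with both against Control (adjusted p = 3.09e-06), 1.88 ± 0.30 with both against IFN-γ (adjusted p = 0.00125) and 3.43 ± 0.39 with both against Pam3CSK4 (adjusted p = 0.000529). The fit put IFN-γ at 3.98 ± 0.38 (adjusted p = 5.07e-05) and Pam3CSK4 at 2.42 ± 0.42 (adjusted p = 0.00156) above Control. Its interaction was -0.55 ± 0.47 (adjusted p = 0.550), so the effects of the agents did not differ detectably from additive on the log2 scale.

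Trim12a and Trim12c, mouse relatives of the capsid-binding primate TRIM5, were higher than in Control with IFN-γ and with both agents. Trim12a averaged 4.20 ± 0.53 FPKM with Pam3CSK4 (SD, n = 2), 6.28 ± 0.16 FPKM with IFN-γ and 6.53 ± 0.32 FPKM with both, against 3.67 ± 0.94 FPKM in Control (n = 3 each). Its log2 change was 0.86 ± 0.20 with IFN-γ (adjusted p = 0.00776), 0.90 ± 0.20 with both (adjusted p = 0.00477) and 0.16 ± 0.22 with Pam3CSK4 (adjusted p = 0.598). With both against Pam3CSK4 it was 0.75 ± 0.23 (adjusted p = 0.0774, or 0.000366 without Control replicate 3). Trim12c averaged 6.70 ± 0.77 FPKM with Pam3CSK4, 10.1 ± 1.3 FPKM with IFN-γ and 10.5 ± 1.1 FPKM with both, against 7.26 ± 1.0 FPKM in Control. It was 0.57 ± 0.15 higher on the log2 scale with IFN-γ (adjusted p = 0.0134) and 0.62 ± 0.15 higher with both (adjusted p = 0.00709) than in Control. With both it was also 0.76 ± 0.17 higher than with Pam3CSK4 (adjusted p = 0.0220). The IFN-γ call of Trim12c was lost without the 3 libraries with vessel wall and fibroblast transcripts (0.39, adjusted p = 0.0560). Its call against Pam3CSK4 was lost without Pam3CSK4 replicate 1 (adjusted p = 0.0794) or 2 (0.184) or Pam3CSK4+IFN-γ replicate 1 (0.0761) or 2 (0.0541).

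The other members of the cluster moved less or stayed low. Trim5, whose primate counterpart restricts retroviruses, averaged 2.40 ± 0.51 FPKM with Pam3CSK4, 3.35 ± 0.64 FPKM with IFN-γ and 2.98 ± 0.28 FPKM with both, against 2.68 ± 0.32 FPKM in Control, and was called in no comparison. Trim34a averaged 6.75 ± 0.43 FPKM with Pam3CSK4, 5.66 ± 0.17 FPKM with IFN-γ and 6.59 ± 0.23 FPKM with both, against 5.18 ± 1.3 FPKM in Control, and was not called either (with both it passed without Control replicate 2, at 0.61, adjusted p = 0.0294). Trim34b, Trim30b and Trim6 were below the filter, with highest levels of 0.122, 0.600 and 0.658 FPKM. The annotated span of Trim34a overlaps those of Trim5, Trim12a and Trim12c on the opposite strand and that of Trim34b on its own strand by 36680 bases. Whether counting used strand is not given in the sources used here. Nor is how any reads shared by related genes, such as Trim30a, Trim30c and Trim30d or Trim12a and Trim12c, were assigned. Values of these genes are uncertain to that extent.

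**Figure D3:**
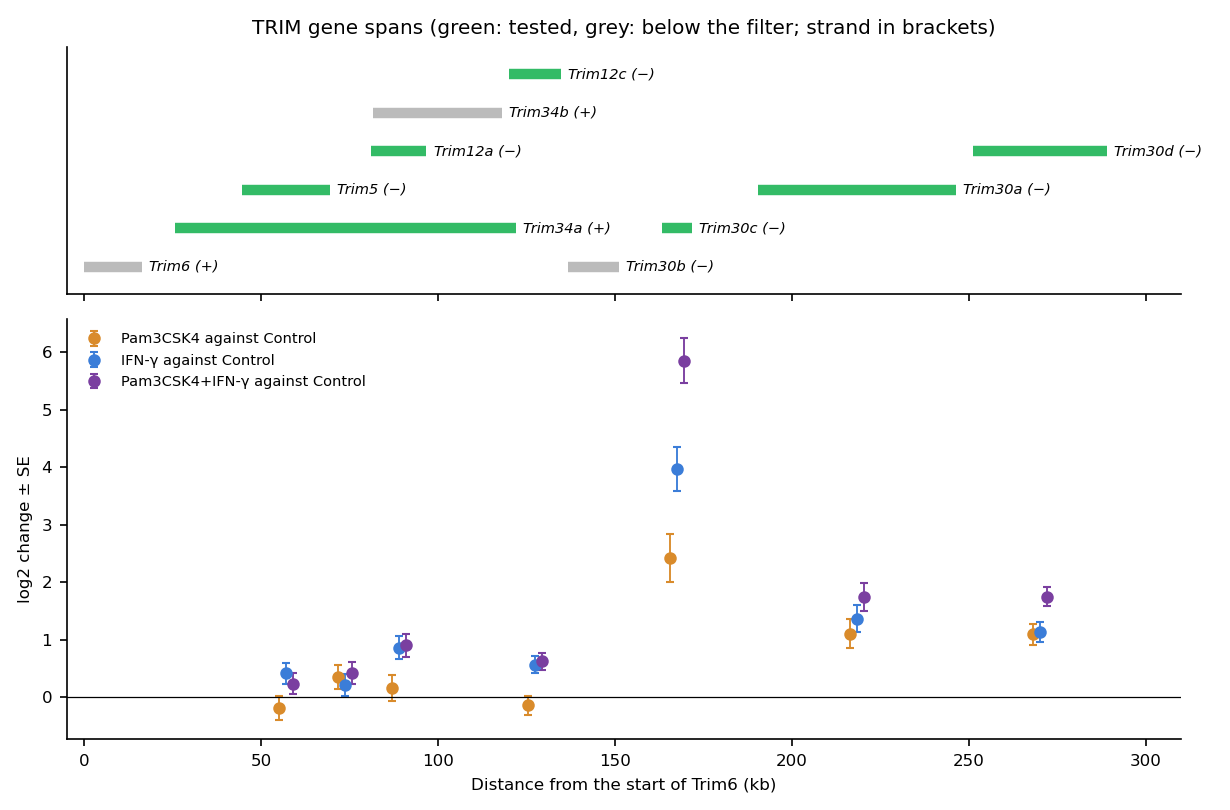
Above, spans of the 10 TRIM genes of the chromosome 7 cluster by distance from the start of Trim6 (kb), tested genes in green and genes below the filter in grey. Below, the edgeR log2 change ± SE of the 7 tested genes at the middle of each span, for Pam3CSK4, IFN-γ and Pam3CSK4+IFN-γ against Control, with Trim30c highest at 5.85 with both agents.

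Promoter windows (RefSeq, GRCm38.p6, 250 bases before to 50 after each start) were searched for 3 motifs on both strands in the 52 members that had a window, 25 of them tested. The ISRE letters GAAANNGAAA (TTTCNNTTTC on the other strand) were in 8 of the 25 tested members (32.0%) and in 1 of the 27 members below the filter, against 3.99% of 27025 genes with a window and 3.44% of 32851 windows. The 8 were Trim5, Trim12a, Trim12c, Trim21, Trim26, Trim30a, Trim30d and Trim34a, so 6 of them lie in the cluster, whose genes arose by duplication and share sequence. The GAS letters TTCNNNGAA were in 1 tested member, Trim30c, and in 5 of the 27 members below the filter (Trim15, Trim31, Trim38, Trim45 and Trim46), against 9.55% of genes and 8.30% of windows, and the κB letters GGGNNNTTCC (GGAANNNCCC) were in 1 tested member, Trim28, and in 0 of the 27, against 6.31% of genes and 5.56% of windows. Trim25 held none of the 3, and Trim5 and Trim34a, which hold the ISRE letters, were called in no comparison. The stretches upstream of 5 starts, and the one around the GAS match of Trim30c, are shown because they carry these matches in members the results turn on or set beside them, with up to 25 bases on either side, the matches in capitals, and each read 5′ to 3′ on the strand of its gene.

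Trim30a: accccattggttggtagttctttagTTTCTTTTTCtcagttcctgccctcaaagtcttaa
Trim30d: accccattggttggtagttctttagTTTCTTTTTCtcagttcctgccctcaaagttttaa
Trim12c: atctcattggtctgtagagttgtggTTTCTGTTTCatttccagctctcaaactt
Trim5: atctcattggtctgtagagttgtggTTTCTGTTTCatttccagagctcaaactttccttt
Trim26: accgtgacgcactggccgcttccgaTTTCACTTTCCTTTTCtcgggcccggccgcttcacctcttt
Trim30c: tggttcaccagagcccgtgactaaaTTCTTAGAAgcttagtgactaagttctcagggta

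These lie at chr7:104465195-104465254, chr7:104507856-104507915, chr7:104353350-104353403 and chr7:104288121-104288180 (minus strand), at chr17:36836961-36837026 (plus strand) and at chr7:104400807-104400865 (minus strand), in that order. The Trim30a and Trim30d stretches are identical at 59 of 60 positions, and those of Trim12c and Trim5 at 52 of 54, while Trim30a and Trim5 match at 32 of 60. In Trim26 the capitals hold a pair of overlapping ISRE matches. The RefSeq start of Trim30c lies upstream of the span that the deposited table gives for it. A match is a description of letters in these windows, and no binding was measured.

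Among members that act on sensing and inflammatory signalling, Trim21 had the largest called change against Control. Of the 12 tested, 2 were higher with Pam3CSK4 than in Control and 0 lower, 3 were higher with IFN-γ and 2 lower, and 4 were higher with both and 1 lower. Of all tested genes 20.0% and 21.4% were higher and lower with Pam3CSK4, 20.0% and 21.6% with IFN-γ, and 23.4% and 24.2% with both, so these counts are near the background. Trim21 (ENSMUSG00000030966, chr7:102557922-102565469, minus strand), the cytosolic antibody receptor that marks antibody-coated particles for the proteasome, had 16.0 and 14.6 FPKM with Pam3CSK4, 21.1, 23.3 and 23.0 FPKM with IFN-γ and 28.9, 25.1 and 25.6 FPKM with both, against 7.02, 5.76 and 4.07 FPKM in Control. The 4 groups did not overlap. The log2 change against Control was 1.41 ± 0.22 (adjusted p = 0.000835) with Pam3CSK4, 2.09 ± 0.21 (adjusted p = 5.90e-05) with IFN-γ and 2.31 ± 0.21 (adjusted p = 1.95e-05) with both.

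The effects of the agents on Trim21 were less than additive on the log2 scale. The step from IFN-γ to both was 0.23 ± 0.20 (adjusted p = 0.407), against 1.41 for Pam3CSK4 alone over Control, and the interaction was -1.19 ± 0.30 (adjusted p = 0.0265). The step from Pam3CSK4 to both was 0.90 ± 0.23 (adjusted p = 0.0375). Leaving out Pam3CSK4 replicate 1 or 2, IFN-γ replicate 2 or 3, or Pam3CSK4+IFN-γ replicate 1, 2 or 3 ended both the interaction call and the call against Pam3CSK4, with interactions of -1.24 to -1.13 and adjusted p up to 0.0799, and steps from Pam3CSK4 of 0.84 to 0.96 and adjusted p up to 0.221. The call against Pam3CSK4 was also lost without the level filter (adjusted p = 0.0573). Without Control replicate 3, which had the lowest Trim21 and the vessel wall and fibroblast transcripts, the interaction was -0.96 (adjusted p = 0.00171).

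Trim25 (ENSMUSG00000000275, chr11:88999376-89020293, plus strand), which is known to attach ubiquitin to the RNA sensor RIG-I and ISG15 to other proteins, rose with Pam3CSK4. It had 9.22 and 9.60 FPKM with Pam3CSK4, 9.02, 5.93 and 5.24 FPKM with IFN-γ and 13.0, 11.3 and 9.74 FPKM with both, against 6.07, 4.72 and 6.00 FPKM in Control. The IFN-γ libraries overlapped those of Control, and their highest value came from replicate 1, a library with vessel wall and fibroblast transcripts. The log2 change was 0.74 ± 0.20 (adjusted p = 0.0172) with Pam3CSK4 and 1.11 ± 0.19 (adjusted p = 0.000982) with both against Control, and 0.75 ± 0.19 (adjusted p = 0.0124) with both against IFN-γ. With IFN-γ it was 0.36 ± 0.19 (adjusted p = 0.145), or 0.12 without the 3 libraries. The interaction was 0.01 ± 0.28 (adjusted p = 0.983). With both against Pam3CSK4 it was 0.37 (adjusted p = 0.348), or 0.48 (adjusted p = 0.0306) without the 3 libraries. The Pam3CSK4 call was lost without Pam3CSK4 replicate 1 (adjusted p = 0.0600), Pam3CSK4 replicate 2 (0.0903) or Control replicate 2 (0.0531).

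**Figure D4:**
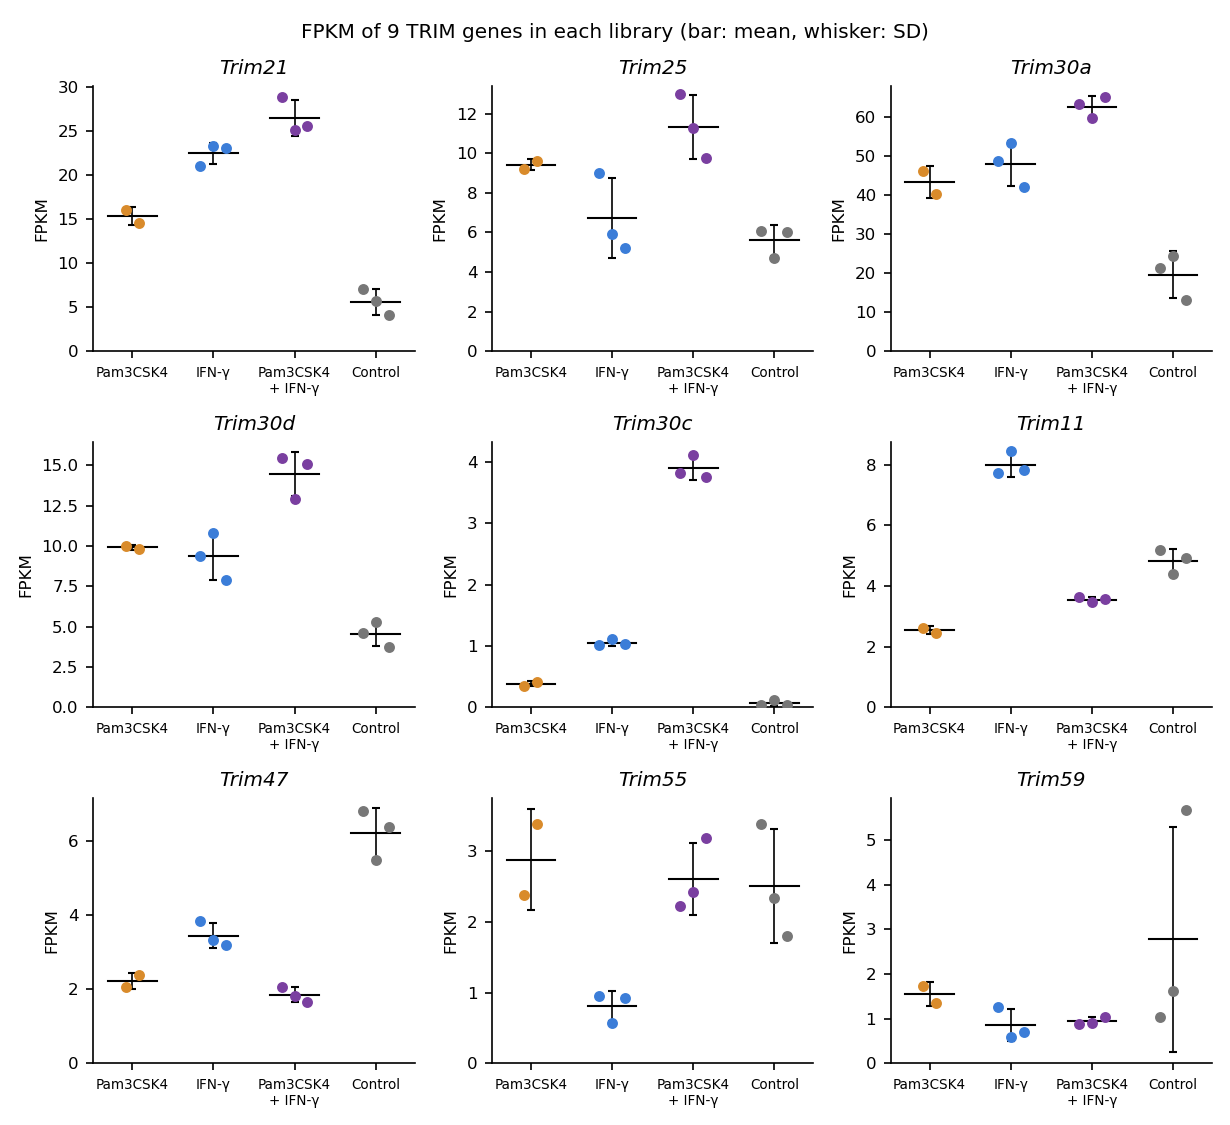
FPKM in each library (points) with the group mean (bar) and SD (whisker) for 9 TRIM genes in Pam3CSK4 (n = 2), IFN-γ (n = 3), Pam3CSK4+IFN-γ (n = 3) and Control (n = 3) cells, each axis starting at 0. Trim11 is high in IFN-γ libraries alone (7.71 to 8.45 FPKM), Trim55 is low in them alone (0.567 to 0.946 FPKM), and Trim59 is led by 1 Control library (5.67 FPKM).

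Other members of this role changed by less than 1 on the log2 scale or were not called. Trim14, an adaptor at the mitochondrial antiviral protein MAVS, averaged 4.82 ± 0.17 FPKM with both, against 3.10 ± 0.66 FPKM in Control (log2 change 0.72 ± 0.17, adjusted p = 0.00758), and its span overlaps Nans on the other strand. Without Control replicate 1 Trim14 also passed with Pam3CSK4 (0.57, adjusted p = 0.0338) and with IFN-γ (0.55, adjusted p = 0.0282). Trim35 averaged 25.8 ± 2.1 FPKM with Pam3CSK4, 30.5 ± 0.33 FPKM with IFN-γ and 33.3 ± 1.6 FPKM with both, against 23.4 ± 7.9 FPKM in Control. Its Control libraries had 19.0, 18.6 and, in replicate 3, 32.6 FPKM, so all the groups overlapped Control. The log2 change of Trim35 was 0.51 ± 0.15 (adjusted p = 0.0240) with IFN-γ and 0.62 ± 0.15 (adjusted p = 0.00798) with both, and with Pam3CSK4 it was 0.15 (adjusted p = 0.514), or 0.39 (adjusted p = 0.00343) without Control replicate 3. Under total-count scaling both of these calls were lost (0.37 with IFN-γ, adjusted p = 0.144, and 0.50 with both, adjusted p = 0.0569). With both against Pam3CSK4 Trim35 was at 0.47 (adjusted p = 0.134, or 0.00225 without Control replicate 3). The IFN-γ call of Trim35 was lost without IFN-γ replicate 2 (adjusted p = 0.0566) or 3 (0.0785) or Control replicate 1 (0.0761) or 2 (0.0784).

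Trim8, which binds the cytokine-signalling inhibitor SOCS1, had 33.5 and 39.4 FPKM with Pam3CSK4, 27.7, 23.8 and 23.6 FPKM with IFN-γ and 28.7, 28.6 and 32.2 FPKM with both, against 36.0, 32.9 and 32.1 FPKM in Control. It was lower with IFN-γ (-0.34 ± 0.11 on the log2 scale, adjusted p = 0.0375). Trim26 averaged 5.44 ± 0.43 FPKM with IFN-γ, against 4.49 ± 0.81 FPKM in Control, and was called higher at 0.38 ± 0.13 (adjusted p = 0.0396) although the groups overlapped. These are weak calls. That of Trim8 was lost without any of 6 single libraries (IFN-γ replicates 2 and 3, Pam3CSK4+IFN-γ replicates 1 and 2, Control replicates 1 and 2, adjusted p 0.0538 to 0.117). That of Trim26 was lost without any of 9 (all but IFN-γ replicate 1 and Control replicate 1, adjusted p 0.0520 to 0.135).

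Trim32, a ligase with NHL repeats that is mutated in a human limb-girdle muscular dystrophy, averaged 1.62 ± 0.21 FPKM with IFN-γ and 1.73 ± 0.11 FPKM with both, against 2.49 ± 0.52 FPKM in Control (log2 change -0.51 ± 0.14, adjusted p = 0.0174, and -0.43 ± 0.14, adjusted p = 0.0315). Without the 3 libraries with vessel wall and fibroblast transcripts the IFN-γ value was -0.28 (adjusted p = 0.0979). It was lost without IFN-γ replicate 1 (adjusted p = 0.0550), and the call with both was lost without any of its 3 libraries or Control replicate 2 or 3 (adjusted p 0.0558 to 0.101). Trim13, Trim23, Trim27 and Trim65 were called in no comparison.

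Trim56, known to promote signalling through STING, was outside the rule for named genes and was chosen after its values were seen, because it had the largest SE of the tested members. It had 1.17 and 1.93 FPKM with Pam3CSK4, 0.196, 1.86 and 0.242 FPKM with IFN-γ and 7.40, 0.349 and 8.42 FPKM with both, against 0.275, 2.45 and 0.980 FPKM in Control. All the groups overlapped, and the log2 change with both against Control was 2.19 ± 1.20 (adjusted p = 0.161). With both against IFN-γ it was 2.78 (adjusted p = 0.111), and past the threshold without IFN-γ replicate 2 (4.60, adjusted p = 0.0436) or without Pam3CSK4+IFN-γ replicate 2 (3.34, adjusted p = 0.0492).

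Trim11 was lower with Pam3CSK4 and higher with IFN-γ. Trim11 (ENSMUSG00000020455, chr11:58978093-58991458, plus strand), a ligase reported in human cells to direct the DNA sensor AIM2 to autophagy, had 2.63 and 2.46 FPKM with Pam3CSK4, 7.71, 8.45 and 7.82 FPKM with IFN-γ and 3.63, 3.46 and 3.56 FPKM with both, against 5.19, 4.41 and 4.92 FPKM in Control. No groups overlapped, and the libraries of the group given both agents lay between those of Pam3CSK4 and Control. Against Control the log2 change was -0.94 ± 0.10 (adjusted p = 6.65e-05) with Pam3CSK4, 0.82 ± 0.08 (adjusted p = 6.51e-05) with IFN-γ and -0.36 ± 0.08 (adjusted p = 0.00613, or 0.0695 without the level filter) with both. It was lower with both than with IFN-γ (-1.18 ± 0.08, adjusted p = 9.08e-06) and 0.59 ± 0.09 higher with both than with Pam3CSK4 (adjusted p = 0.00444, or 0.0566 without Pam3CSK4 replicate 2). The interaction was -0.24 ± 0.12 (adjusted p = 0.223).

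Trim47 was lower in every treated group. Trim47 (ENSMUSG00000020773, chr11:116105752-116127210, minus strand) had 2.07 and 2.38 FPKM with Pam3CSK4, 3.84, 3.32 and 3.19 FPKM with IFN-γ and 2.07, 1.82 and 1.66 FPKM with both, against 6.82, 5.50 and 6.38 FPKM in Control. The treated libraries all lay below the lowest Control library. The log2 change was -1.50 ± 0.14 (adjusted p = 4.96e-05) with Pam3CSK4, -0.75 ± 0.12 (adjusted p = 0.00117) with IFN-γ and -1.66 ± 0.13 (adjusted p = 6.76e-06) with both. With both it was also lower than with IFN-γ (-0.91 ± 0.12, adjusted p = 0.000516), and its interaction was 0.59 ± 0.19 (adjusted p = 0.0589), or 0.77 (adjusted p = 0.0240) without the 3 libraries with vessel wall and fibroblast transcripts. Its span overlaps that of Trim65 on the same strand by 5365 bases, and Trim65 was called in no comparison.

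Trim55, which encodes a muscle RING finger protein of the sarcomere (MuRF2), was low in the IFN-γ group. Trim55 (ENSMUSG00000060913, chr3:19644474-19692421, plus strand) had 2.37 and 3.39 FPKM with Pam3CSK4, 0.946, 0.567 and 0.927 FPKM with IFN-γ and 2.22, 2.42 and 3.18 FPKM with both, against 3.38, 2.33 and 1.79 FPKM in Control. Only the IFN-γ libraries lay apart from the Control libraries. Trim55 reached 1 FPKM in no IFN-γ library, so it passed the level filter only through groups in which it was higher. Its calls that involve the IFN-γ group are therefore tied to that filter. The log2 change was -1.54 ± 0.33 (adjusted p = 0.00470) with IFN-γ against Control and 1.67 ± 0.33 (adjusted p = 0.00371) with both against IFN-γ, while with both against Control it was 0.13 ± 0.31 (adjusted p = 0.752). The interaction was 1.50 ± 0.48 (adjusted p = 0.0631), or 1.69 (adjusted p = 0.0209) without the 3 libraries with vessel wall and fibroblast transcripts.

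The IFN-γ call of Trim59 was lost without any of 8 single libraries. Trim59 (ENSMUSG00000034317, chr3:69035288-69044755, minus strand) had 1.73 and 1.36 FPKM with Pam3CSK4, 1.27, 0.590 and 0.704 FPKM with IFN-γ and 0.881, 0.913 and 1.04 FPKM with both, against 1.03, 1.63 and 5.67 FPKM in Control. The 5.67 FPKM is from Control replicate 3, the library with 2213 FPKM of vessel wall and fibroblast markers, and IFN-γ replicate 1, with 121 FPKM of them, was the highest of its group. The log2 change with IFN-γ was -1.55 ± 0.53 (adjusted p = 0.0408), against -0.60 (adjusted p = 0.151) without Control replicate 3 and -0.98 (adjusted p = 0.0170) without the 3 libraries. The call was also lost without either Pam3CSK4 library, IFN-γ replicate 2 or 3, or any Pam3CSK4+IFN-γ library (adjusted p 0.0570 to 0.121).

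**Figure D5:**
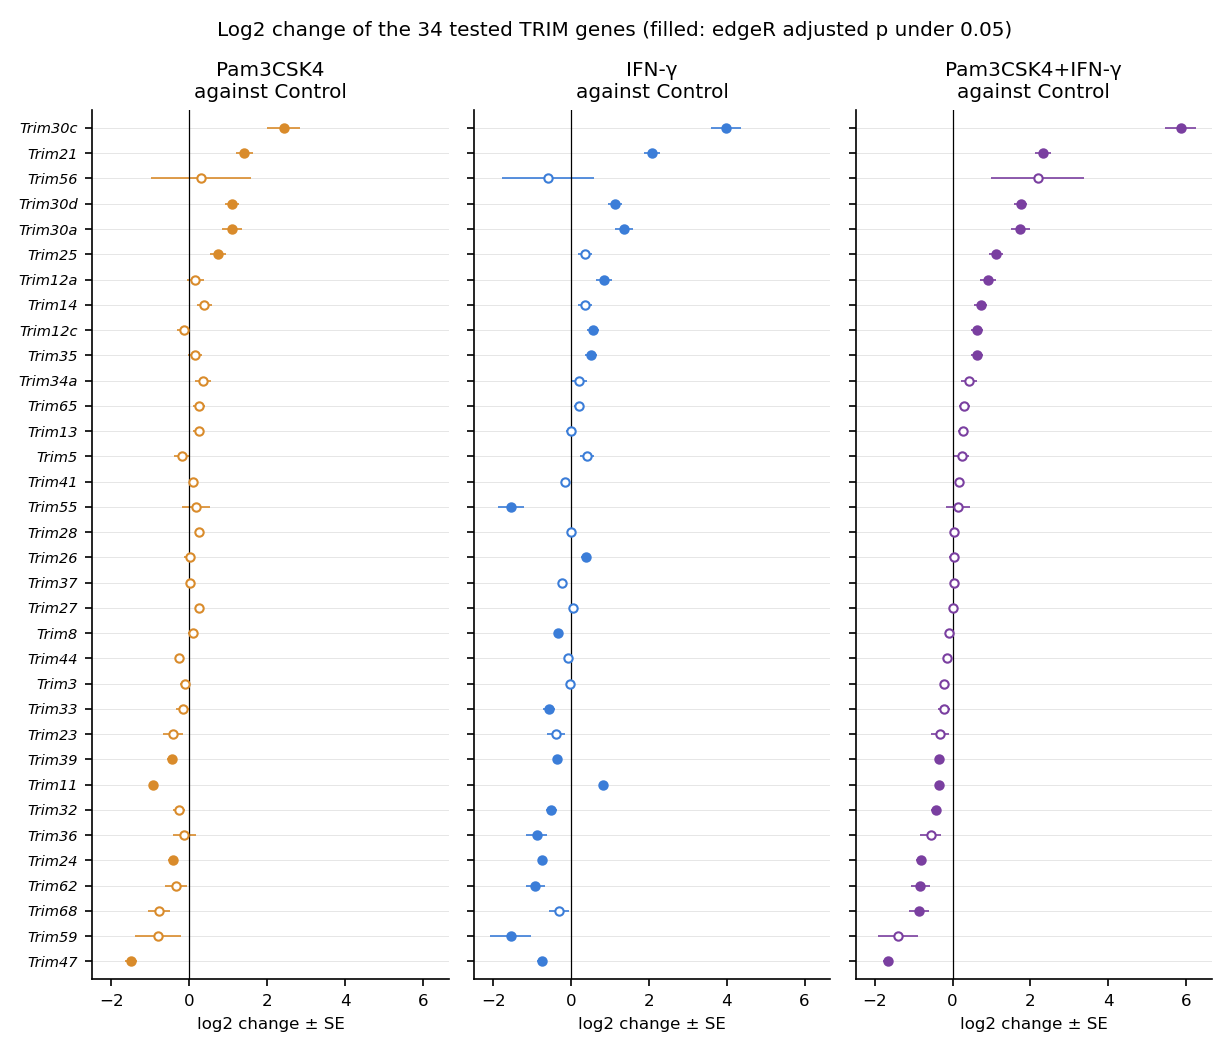
Log2 change ± SE of the 34 tested TRIM genes against Control with Pam3CSK4, IFN-γ and Pam3CSK4+IFN-γ, ordered by the last, with filled points past an edgeR adjusted p of 0.05. Trim30c and Trim21 lead with both agents (5.85 and 2.31), Trim47 is lowest (-1.66), and Trim11 lies on opposite sides of 0 with Pam3CSK4 (-0.94) and IFN-γ (0.82).

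Among the tested chromatin regulators of the family, Trim24 and Trim33 had lower calls, and Trim28 had none. Trim28, the corepressor KAP1 that KRAB zinc finger proteins recruit, averaged 25.5 ± 2.5 FPKM with Pam3CSK4, 19.9 ± 0.86 FPKM with IFN-γ and 20.4 ± 0.37 FPKM with both, against 21.3 ± 3.0 FPKM in Control. It was called in no comparison (Pam3CSK4 against Control 0.25 ± 0.09 on the log2 scale, adjusted p = 0.0550). With Pam3CSK4 it passed as higher without Control replicate 3 (0.31, adjusted p = 0.0201) or the 3 libraries with vessel wall and fibroblast transcripts (0.0308). It also passed by DESeq2 (0.28, adjusted p = 0.0146), with its size factors in edgeR (0.0431) and without the level filter (0.0482). Without Pam3CSK4 replicate 1 the change of Trim28 was 0.36. Trim24, a coregulator of nuclear receptors, was lower in all the treated groups. It had 1.78 ± 0.15 FPKM with Pam3CSK4, 1.33 ± 0.13 FPKM with IFN-γ and 1.27 ± 0.10 FPKM with both, against 2.37 ± 0.12 FPKM in Control. Its log2 change was -0.43 ± 0.13 (adjusted p = 0.0259) with Pam3CSK4, -0.74 ± 0.12 (adjusted p = 0.000960) with IFN-γ and -0.81 ± 0.12 (adjusted p = 0.000365) with both. The Pam3CSK4 call of Trim24 was lost without either Pam3CSK4 library or Control replicate 1 or 2 (adjusted p 0.0586 to 0.166). Trim33, which acts on SMAD4 in TGF-β signalling, averaged 1.74 ± 0.33 FPKM with IFN-γ, against 2.75 ± 0.32 FPKM in Control (-0.57 ± 0.16, adjusted p = 0.0163). That call was lost without IFN-γ replicate 3 (adjusted p = 0.0538) or Control replicate 2 (0.0571). Trim66 was below the filter, at 0.168 FPKM or less.

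The remaining tested members were mostly steady or lower. Trim62 fell with IFN-γ (-0.92 ± 0.25 on the log2 scale, adjusted p = 0.0151) and with both (-0.83 ± 0.25, adjusted p = 0.0196). Trim36 was lower with IFN-γ (-0.89 ± 0.28, adjusted p = 0.0280), Trim39 was lower with Pam3CSK4, IFN-γ and both (-0.45, -0.35 and -0.35), and Trim68 was lower with both (-0.86 ± 0.26, adjusted p = 0.0215). Each was at 2.41 FPKM or less in all libraries. Trim62 reached 1 FPKM only in libraries not given IFN-γ, and was at 0.925 FPKM or less in the others. It passed the level filter only through groups in which it was higher, so its lower calls are tied to that filter. Trim68 reached 1 FPKM only in Control and IFN-γ libraries, so its lower call with both is tied to the filter too. The IFN-γ call of Trim62 held without any single library, and the others were lost without some, with adjusted p of 0.0534 to 0.0979. These were Pam3CSK4+IFN-γ replicate 2 or 3 or Control replicate 1 for Trim62 with both, and IFN-γ replicate 1 or 3 or Control replicate 1 or 2 for Trim36. For Trim39 they were either Pam3CSK4 library with Pam3CSK4, IFN-γ replicate 1 or 2 or Control replicate 1 with IFN-γ, and Pam3CSK4+IFN-γ replicate 3 or Control replicate 1 with both. For Trim68 they were Pam3CSK4+IFN-γ replicate 2 or 3 or Control replicate 3. Without the level filter the same 6 calls were lost (adjusted p 0.0706 to 0.168), and without the 3 libraries with vessel wall and fibroblast transcripts those of Trim39 with IFN-γ and with both and that of Trim68 were lost (adjusted p 0.0581 to 0.103). Trim41 was higher with both (12.5 ± 0.44 FPKM) than with IFN-γ (9.97 ± 0.59 FPKM; log2 change 0.32 ± 0.10, adjusted p = 0.0296), a call lost without IFN-γ replicate 1 (adjusted p = 0.0930), Pam3CSK4+IFN-γ replicate 1 (0.0792) or Pam3CSK4+IFN-γ replicate 2 (0.28 on the log2 scale).

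The steady members included some of the most abundant. Trim44, which lacks a RING finger, averaged 17.0 ± 1.9 FPKM with Pam3CSK4, 17.8 ± 2.0 FPKM with IFN-γ and 17.1 ± 0.28 FPKM with both, against 20.2 ± 1.2 FPKM in Control. Trim27 averaged 11.5 ± 0.95 FPKM with Pam3CSK4, 9.23 ± 0.28 FPKM with IFN-γ and 9.16 ± 0.31 FPKM with both, against 9.60 ± 0.41 FPKM in Control, and passed with Pam3CSK4 only without Control replicate 2 (0.31, adjusted p = 0.0463), under total-count scaling (log2 change 0.25) and by DESeq2 (adjusted p = 0.0420). Trim3, a neuronal ligase with NHL repeats, averaged 4.92 ± 0.23 FPKM with Pam3CSK4, 4.80 ± 0.42 FPKM with IFN-γ and 4.23 ± 0.18 FPKM with both, against 5.28 ± 1.1 FPKM in Control. Trim13, an endoplasmic reticulum ligase, averaged 4.64 ± 0.24 FPKM with Pam3CSK4, 3.63 ± 0.049 FPKM with IFN-γ and 4.38 ± 0.39 FPKM with both, against 3.90 ± 0.27 FPKM in Control. Some comparisons of the members above did not pass with all libraries but did without libraries with vessel wall and fibroblast transcripts. Without Control replicate 3 these were, for both against IFN-γ, Trim8 (0.25, adjusted p = 0.0494, against 0.118 with all libraries), Trim14 (0.36, 0.0129 against 0.144) and Trim34a (0.21, 0.0314 against 0.437). They were also Trim24 with both against Pam3CSK4 (-0.39, 0.0446 against 0.105) and Trim36 with both against Control (-0.74, 0.0377 against 0.115). Without all 3 they were Trim26 with both against IFN-γ (-0.47, 0.0366 against 0.0644) and the interaction of Trim39 (0.50, 0.0463 against 0.0906). In all 11 members were called in no comparison, and apart from Trim56 their pairwise log2 changes lay between -0.43 and 0.42.

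Of the 33 members below the filter, 7 had no count in any library (Trim31, Trim40, Trim50, Trim52, Trim58, Trim63 and Trim75). The others reached at most 0.1 FPKM (the highest value over all libraries, for 16 members with those 7 included), 0.1 to 1 FPKM (16 members) or more (Trim16, at 2.14 FPKM in Control replicate 3 alone and 0.528 FPKM or less elsewhere). Trim63, the muscle RING finger protein MuRF1, Trim54 and the neuronal Trim9, Trim46 and Trim67 were among these 33, with Trim46 highest at 0.867 FPKM.

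Some low members still differed in a fit without the level filter. Trim30b had 0.0484 and 0.0190 FPKM with Pam3CSK4, 0.581, 0.600 and 0.509 FPKM with IFN-γ and 0.327, 0.339 and 0.433 FPKM with both, against 0.0982, 0.162 and 0.148 FPKM in Control. In that fit it was lower with Pam3CSK4 (-1.92 on the log2 scale, adjusted p = 0.00882) and higher with IFN-γ (2.20, adjusted p = 0.00119) and with both (1.60, adjusted p = 0.00559) than in Control. Trim72, the muscle membrane-repair protein MG53, had 0.0480 and 0 FPKM with Pam3CSK4, 0.581, 0.954 and 0.891 FPKM with IFN-γ and 0.0145, 0.0432 and 0.0599 FPKM with both, against 0.175, 0.166 and 0.278 FPKM in Control. It was high in the IFN-γ libraries alone, with a log2 change of 2.14 (adjusted p = 0.0449) against Control and -4.29 (adjusted p = 0.00242) for both against IFN-γ, and it was lower with Pam3CSK4 than in Control (-2.87, adjusted p = 0.0448). Trim6 was higher with both than in Control (1.57, adjusted p = 0.00694), and Trim2 was lower with Pam3CSK4, IFN-γ and both (-1.50, -1.04 and -1.80). Trim7 was lower with Pam3CSK4 (-2.52, adjusted p = 0.0102), and Trim16, whose Control level rests on replicate 3, was lower with Pam3CSK4 (-3.23, adjusted p = 0.0122) and with both (-2.22, adjusted p = 0.0222). Each of these values rests on levels under 1 FPKM in the treated libraries.

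Partners of the family were taken as hand-made lists, chosen with earlier results of these data known, so their counts are a description and no independent evidence. The shares of all tested genes to set beside them are 20.0% higher and 21.4% lower with Pam3CSK4, 20.0% and 21.6% with IFN-γ, and 23.4% and 24.2% with both. In the list of ISG15 conjugation all 5 genes (Isg15, the activating enzyme Uba7, the conjugating enzyme Ube2l6, the mouse ligase Herc6 and the deconjugase Usp18) were higher than in Control with Pam3CSK4, with IFN-γ and with both, with median log2 changes of 2.15, 2.11 and 3.09. Isg15 itself changed by 3.55 ± 0.23, 3.50 ± 0.22 and 4.59 ± 0.23 on the log2 scale in these comparisons (adjusted p = 5.80e-06, 3.33e-06 and 5.73e-07). In the interaction 4 of the 5 were lower, against 8.01% of all tested genes. Isg15 was at -2.47 ± 0.30 (adjusted p = 0.00116) and Usp18 at -2.74 ± 0.33 (adjusted p = 0.00119).

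Of 15 genes of the nucleic-acid sensing pathways on which TRIM proteins act, 10 were higher and 1 lower with Pam3CSK4, 10 higher and 1 lower with IFN-γ, and 11 higher and 0 lower with both, against Control. These shares higher stand above those of all tested genes, in a list chosen with results known. Irf7, the transcription factor of interferon induction, changed by 3.20 ± 0.26 with Pam3CSK4, 3.28 ± 0.25 with IFN-γ and 3.96 ± 0.26 with both. Ddx58 (RIG-I, the substrate of TRIM25) changed by 1.46 ± 0.14 with Pam3CSK4, 0.48 ± 0.13 with IFN-γ and 1.31 ± 0.13 with both. Tmem173 (STING) was lower with Pam3CSK4 (-0.65 ± 0.15, adjusted p = 0.00686) and higher with IFN-γ (2.47 ± 0.14, adjusted p = 1.58e-06). Rnf135 (Riplet), another ligase of RIG-I, was called in no comparison.

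In the lists of general partners, calls went in both directions, and their shares were not tested against those of all tested genes. Of 9 tested ubiquitin-conjugating E2 genes, 1 was higher and 2 lower with Pam3CSK4, 1 higher and 2 lower with IFN-γ, and 2 higher and 2 lower with both, against Control. The largest of these changes was that of Ube2d1 with Pam3CSK4 (-1.13 ± 0.12, adjusted p = 0.000114). Of 8 genes of the KAP1 corepressor, 1 was higher and 1 lower with Pam3CSK4, and 1 higher and 2 lower with IFN-γ and with both, with Cbx3, a heterochromatin protein, lower in each (-0.63, -0.51 and -0.93) and Hdac1 higher in each (0.45, 0.44 and 0.51). Of 4 tested genes of TRIM21-directed degradation, Psmd14 and Vcp were higher and Ube2w was lower with Pam3CSK4, with IFN-γ and with both.

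Pml, a TRIM protein under another symbol that scaffolds nuclear bodies, had 1.91 and 1.80 FPKM with Pam3CSK4, 9.90, 10.2 and 10.6 FPKM with IFN-γ and 4.48, 4.27 and 5.01 FPKM with both, against 1.65, 1.50 and 1.86 FPKM in Control. It was 2.72 ± 0.09 higher on the log2 scale with IFN-γ (adjusted p = 6.31e-08) and 1.55 ± 0.08 higher with both (adjusted p = 8.76e-07) than in Control, and -1.17 ± 0.08 with both against IFN-γ (adjusted p = 8.96e-06). With Pam3CSK4 the change was 0.14 ± 0.09 (adjusted p = 0.260). Mid1 and Mid2, 2 more such genes, were below the filter.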

How the data were processed

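RNA-seq libraries were made from total RNA of microglia, 11 libraries in all, per the labels. The sources used here give neither the counting tool nor the strand setting. Per the submitters' processing notes, the tools were TopHat2 2.1.0, Cufflinks 2.1.1 and Cuffdiff with the mm10 build, with no role or order stated. The deposited table gives whole-number read counts per Ensembl gene and FPKM values by the authors. The deposited FPKM equal count per gene constant and library total, within a relative 2.82e-06 over 6617 genes above 200 counts, so they carry no composition scaling.

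Members and partner lists were chosen with earlier results of these data known. Genes with at least 1 FPKM in at least 2 of 11 libraries (10938) were fitted with edgeR 4.0.16 in R 4.3.3 as 4 group means with TMM scaling. Two-sided quasi-likelihood F tests were adjusted over all tested genes by Benjamini and Hochberg's method, with a threshold of 0.05, and an SE is the log2 change over the square root of F. The fit was tested on simulated data. Depth was 15033702 to 20321017 counts per library, and at low counts this sets the precision. Described in full were Trim21, Trim25, Trim30a and members with a mean of at least 2 FPKM in some group that passed with a log2 change of at least 1 in size, and 12 more were named by mean level. Alternatives were DESeq2 1.42.0, its size factors in edgeR, total-count scaling (added after the data were seen), no filter, a replicate block, each library left out, and 3 libraries with vessel wall transcripts left out. Replicates 2 and 3 of the combined treatment carry another agonist suffix in 1 label field, and were kept in that group. Promoter windows are RefSeq's, of GRCm38.p6.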

Additional observations from a re-analysis of the deposited data

Results flagged for a closer look

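The change of Trim21 with Pam3CSK4 differed between cells with and without IFN-γ. Pam3CSK4 came before IFN-γ in the cells given both, so time since Pam3CSK4 cannot be told apart from the presence of IFN-γ. The interaction was -1.19 on the log2 scale (edgeR, adjusted p = 0.0265), with a Pam3CSK4 effect of 0.23 in the presence of IFN-γ and 1.41 in its absence. The adjusted p lay between 0.000520 and 0.0799 over the 17 alternatives, and the interaction was negative in each.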

How the results depend on the processing

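Of 56 member calls, 32 held under all 17 alternatives, 24 were lost under at least 1, and 0 reversed. Counts without the level filter include members below it. There, lower calls numbered 7 (4 as reported) for Pam3CSK4, 6 (10) for IFN-γ and 4 (7) for both, each against Control. Those with Pam3CSK4 include Trim2, Trim7, Trim16, Trim30b and Trim72, which are below the filter. Over all 22703 genes of that fit, lower calls numbered 1863, 1813 and 2254, against 2344, 2361 and 2646 of 10938 as reported. For both against Pam3CSK4, higher calls numbered 9 (4) without the 3 libraries with vessel wall transcripts, and lower calls numbered 2 (0) under total-count scaling. Over all 10938 tested genes these were 1200 (663) and 660 (332). Higher interaction calls numbered 1 under total-count scaling, 2 by DESeq2 and 3 without the 3 libraries (0 as reported). Over all tested genes they were 984, 1188 and 1601 (876 as reported). Leaving out single libraries gave 4 to 7 higher and 2 to 5 lower for Pam3CSK4, 7 to 9 higher and 6 to 9 lower for IFN-γ, and 9 to 10 higher and 3 to 7 lower for both, against Control. It gave 3 to 9 higher and 2 to 3 lower for both against IFN-γ, 1 to 8 higher and 0 to 1 lower for both against Pam3CSK4, and 0 to 2 in each direction for the interaction. The extremes came without Pam3CSK4 replicate 2 (1 higher for both against Pam3CSK4), without Control replicate 3 (9 higher for both against IFN-γ, 8 against Pam3CSK4), and without IFN-γ replicate 1 or Pam3CSK4+IFN-γ replicate 1 (3 higher for both against IFN-γ). A lone remaining Pam3CSK4 library is assumed there to vary like the other groups. Calls over all 10938 tested genes shifted too. Without Control replicate 3, 2438 were higher for both against IFN-γ (1856 as reported) and 1185 for both against Pam3CSK4 (663). For both against IFN-γ, 1580 were higher without IFN-γ replicate 1 and 1356 without Pam3CSK4+IFN-γ replicate 1. Lower calls against Control numbered 1829 (2361) for IFN-γ without IFN-γ replicate 3, and 2170 (2646) for both without Pam3CSK4+IFN-γ replicate 3. The cause of these shifts was not tested.

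Of 15 same-number pairs of libraries, 6 had a correlation of deviations over 0.1 (range -0.67 to 0.63). The deviations are taken from means of groups of 2 or 3 libraries, so these correlations constrain each other. They cannot decide whether replicate numbers pair the samples by animal or day. With the replicate number as a block, higher and lower calls were 5 and 4 for Pam3CSK4, 8 and 7 for IFN-γ, 9 and 6 for both against Control, 5 and 2 for both against IFN-γ, 4 and 0 for both against Pam3CSK4, and 0 and 1 for the interaction. Over all 10938 tested genes they were, in that order, 1962 and 2169, 2047 and 2122, 2428 and 2467, 1654 and 1660, 528 and 196, and 698 and 646. Depth limits Trim30c in Control and the members below the filter, where single counts decide a value.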
